A study of Mus musculus with 12 samples.

Results

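The cytosolic ribosomal protein genes encode the protein part of the ribosome, and here they were read in 4 stages of the mouse basophil lineage. They were selected on symbol and summed counts, with no contrast between groups used, as the rows of the deposited count table whose symbol is Rpl or Rps followed by a number (with or without a trailing a, x, y or l), Rplp0 to Rplp2 or Rpsa, with at least 100 counts summed over the 12 libraries. This gave 80 genes of 32227 rows, 48 of the large and 32 of the small subunit. Of 82 rows with such a symbol, Rpl39l with 5 counts and Rpl3l with 6 fell below the minimum, and Rps4l with 535 counts and Rpl32l with 1241 were the members with the fewest. In the GENCODE M21 annotation (GRCm38), 77 of the 80 were protein coding, and Rps4l, Rpl32l and Rpl6l were annotated as pseudogenes. All 80 passed the filter on low counts that left 15083 genes for testing.

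A ribosome holds a copy of nearly every ribosomal protein, and surplus copies that find no ribosomal RNA are degraded, so the genes of this family are known for being expressed together. Their mRNAs begin with a pyrimidine tract (terminal oligopyrimidine or TOP mRNAs), through which growth signalling by mTORC1 and the binding protein LARP1 sets how well they are translated. Blood progenitors are known to be sensitive to the dose of several of these proteins, and loss of RPS19 or RPS14 is linked to failure of red cell production in people.

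The cells came from wild-type C57BL/6J mice, whose ages were not given in the sources used here, and were sorted by flow cytometry. The groups were bone marrow (BM) basophil progenitors or BaPs (CD34+, CD200R3+, cKit-, CLEC12A-high), BM pre-basophils (CD34-, CLEC12A-high, CD9-low), BM mature basophils (CD34-, CLEC12A-low, CD9-high) and mature basophils of the spleen with the same markers, with 3 libraries each. Cells of several animals were pooled for each library, and the replicate error is therefore the variation from pool to pool. Library totals ran from 3596108 to 8151030 counts. Levels are given as CPM, the counts scaled to a common library size with TMM factors. The summed CPM of 5 basophil markers ran from 2922 to 64650 over the libraries, and Mcpt8, a basophil protease, was at 553 CPM or more in every library. Prss34 made up 48653 of the 62630 CPM in BaP replicate 1 and was at 883 CPM in spleen replicate 1. Itga2 went the other way between these libraries (32.5 and 125 CPM), as did Cd200r3 (542 and 812 CPM). The sum of the 5 basophil markers is therefore not a measure of purity. BaP replicate 3 stood apart, with 22911 CPM of these markers against 57931 and 62630 in the other BaP libraries, 2399 CPM of 5 erythroid markers against 2.63 and 4.48, 169 CPM of 5 B cell markers against 33.9 and 34.7, and 764 CPM of 5 T and NK cell markers against 337 and 443. Of the basophil markers, Itga2 alone was higher in BaP replicate 3, at 63.1 CPM against 32.5 and 42.0. Nkg7 made up 428 CPM of the T and NK sum in BaP replicate 1 and 485 CPM in BaP replicate 3. Lck was at 118 CPM in BaP replicate 3, against 3.58 and 4.01 in the other BaP libraries. The spleen libraries held 171 to 309 CPM of B cell markers, against 34.1 to 49.4 in BM mature basophils. Stem and multipotent progenitor markers summed to 152 CPM in BaP replicate 3 against 44.7 and 45.5 in the other BaP libraries, and its share of mitochondrial counts was 3.53% against 1.75% and 1.82%. Neutrophil markers summed to 102, 603 and 1718 CPM in BaPs, to 283, 722 and 1660 CPM in pre-basophils and to 57.5 CPM or less in every mature library. The part of these cells and of RNA quality in the results below was not tested. Without BaP replicate 3, all 19 ribosomal protein genes called in BaPs against pre-basophils and all 37 called in BaPs against spleen mature kept their call and direction, and 20 and 12 more were called. In bulk libraries, fewer cells of a type and less RNA per cell cannot be told apart.

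The paralogs Rps27 and Rps27l, whose levels moved in opposite directions, are shown here by sequence to let a reader see how far reads of one can be told from reads of the other. Their coding sequences from GENCODE M21 (chr3:90212725-90213615, minus strand, and chr9:66946175-66949357, plus strand, from first to last coding base on GRCm38, introns removed) follow with the bases that differ in capitals.
Rps27: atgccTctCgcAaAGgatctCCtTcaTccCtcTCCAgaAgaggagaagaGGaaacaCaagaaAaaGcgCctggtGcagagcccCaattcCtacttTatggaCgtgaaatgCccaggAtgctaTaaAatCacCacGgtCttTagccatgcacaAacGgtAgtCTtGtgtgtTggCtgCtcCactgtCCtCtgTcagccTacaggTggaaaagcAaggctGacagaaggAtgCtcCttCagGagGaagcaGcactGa
Rps27l: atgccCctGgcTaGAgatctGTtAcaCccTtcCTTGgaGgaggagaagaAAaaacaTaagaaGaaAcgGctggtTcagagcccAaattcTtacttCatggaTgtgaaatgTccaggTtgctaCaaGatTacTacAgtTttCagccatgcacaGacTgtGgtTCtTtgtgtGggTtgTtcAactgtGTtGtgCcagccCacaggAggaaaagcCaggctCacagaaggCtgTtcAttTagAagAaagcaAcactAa
The sequences differed at 61 of 255 bases and were 76.1% identical, and their longest shared run was 11 bases.

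The promoter stretches below run from 100 bases before to 10 bases after the transcription start given by RefSeq on GRCm38.p6. Of the genes named in the comparisons, they show 3 that were higher in BaPs than in spleen mature basophils (Rps2, Rpl12, Rpl36a) and 4 that were lower (Rps9, Rps27, Rps23, Rpl13a). Capitals mark matches on either strand to the GC box of SP1, spelled GGGCGG. They also mark the core site of the ETS factors, which was searched as CCGGAA, and that of YY1, for which the letters were AAGATGG. The E-box was searched as CACGTG, and the TATA box by the letters TATAAA. Capitals further mark runs of 8 or more pyrimidines on the printed strand, anywhere in the stretch. The stretches are examples and end 10 bases after the start, so runs further downstream are not shown. Those of the 3 higher genes hold no marked run, but within 50 bases of the start 19 of 21 higher genes did.
Rps2 (chr17:24719963-24720072, plus strand): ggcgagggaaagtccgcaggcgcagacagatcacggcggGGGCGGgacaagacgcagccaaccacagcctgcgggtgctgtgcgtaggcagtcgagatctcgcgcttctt
Rpl12 (chr2:32961612-32961721, plus strand): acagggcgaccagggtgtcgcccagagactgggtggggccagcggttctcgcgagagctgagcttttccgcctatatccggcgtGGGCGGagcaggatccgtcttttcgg
Rpl36a (chrX:134585554-134585663, plus strand): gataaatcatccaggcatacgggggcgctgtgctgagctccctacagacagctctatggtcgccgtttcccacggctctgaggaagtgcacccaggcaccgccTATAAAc
Rps9 (chr7:3703941-3704050, plus strand): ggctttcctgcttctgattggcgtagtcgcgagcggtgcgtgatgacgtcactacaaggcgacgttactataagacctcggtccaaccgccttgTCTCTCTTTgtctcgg
Rps27 (chr3:90213639-90213748, minus strand): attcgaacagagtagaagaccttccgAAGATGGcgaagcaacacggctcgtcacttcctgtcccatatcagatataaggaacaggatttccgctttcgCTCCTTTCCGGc
Rps23 (chr13:90923022-90923131, plus strand): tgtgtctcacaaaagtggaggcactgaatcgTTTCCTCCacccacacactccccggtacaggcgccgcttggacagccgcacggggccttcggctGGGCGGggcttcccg
Rpl13a (chr7:45128736-45128845, minus strand): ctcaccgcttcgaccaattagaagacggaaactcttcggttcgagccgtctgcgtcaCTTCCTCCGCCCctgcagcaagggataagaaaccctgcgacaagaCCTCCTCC

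Over windows from 250 bases before to 50 after the start, 58 of the 80 genes had an entry. CCGGAA on either strand was found in 55.2% of those 58 against 23.0% of 16359 genes with a window, AAGATGG in 15.5% against 7.49%, GGGCGG in 60.3% against 52.8%, CACGTG in 10.3% against 9.65% and TATAAA in 12.1% against 12.6%. A run of 8 or more pyrimidines within 50 bases of the start lay in 86.2% of the ribosomal protein genes and in 38.7% of all genes. Among genes higher in BaPs than in spleen mature basophils, 21 had a window and 19 of them held such a run, as did all 5 of the genes lower in BaPs that had a window. CCGGAA lay in 11 of those 21 and in 1 of those 5. These are matches of letters, not binding sites.

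The family as a whole took the largest share of counts in BaPs. The 80 genes held 6.30%, 6.78% and 7.10% of the counts in BaP replicates 1 to 3, and 4.76%, 4.82% and 4.66% in pre-basophils. The BM mature libraries gave 4.63%, 4.56% and 4.39%, and those of the spleen 5.33%, 5.01% and 5.17%. Every BaP library lay above every other library, and every spleen library above every pre-basophil and BM mature library. The group means were 6.73% ± 0.40, 4.75% ± 0.079, 4.52% ± 0.12 and 5.17% ± 0.16 (SD, n = 3), and without BaP replicate 3 the BaP mean was 6.54%. Both subunits followed this order, with the large subunit at 3.39% to 3.81% and the small at 2.91% to 3.29% in BaPs, against 2.32% to 2.61% and 2.06% to 2.20% in the BM pre-basophil and mature libraries. No test was made of these shares, which are not scaled for differences in library composition.

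**Figure D1:**
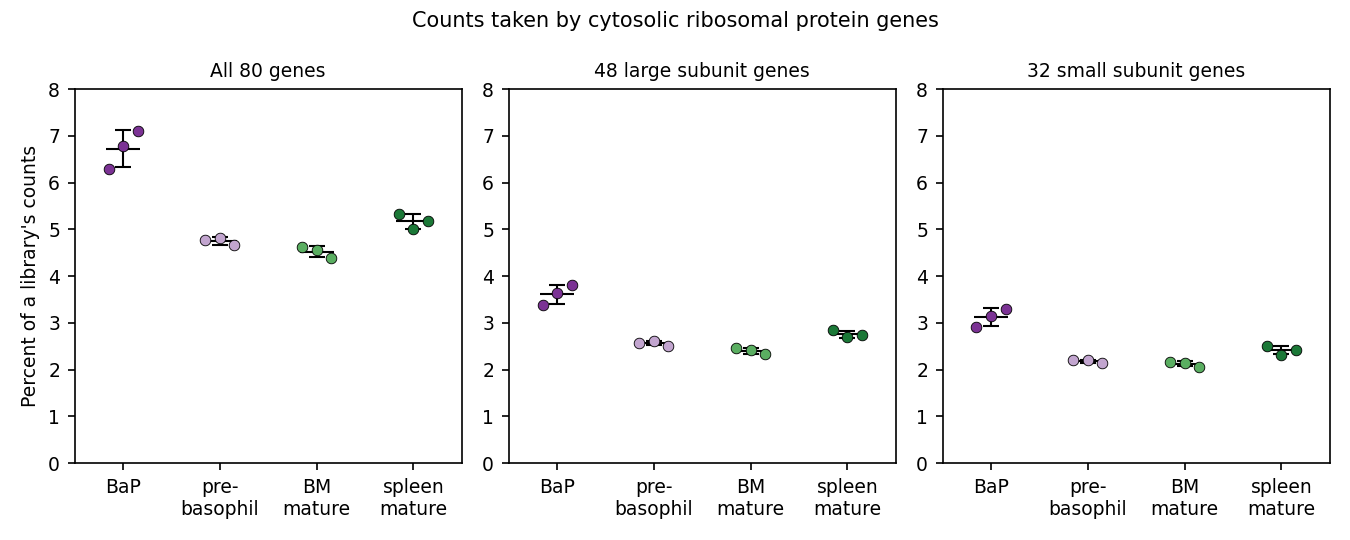
Percent of each library's counts taken by the 80 cytosolic ribosomal protein genes, by the 48 large subunit genes and by the 32 small subunit genes. Points are libraries, horizontal bars are group means and error bars are 1 SD (n = 3). The 3 BaP libraries lie between 6.30% and 7.10%, above all other libraries, and the pre-basophil and BM mature libraries lie lowest.

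Part of the reads of this family lay in rows of pseudogenes. Processed pseudogenes are copies of an mRNA set into the genome, and ribosomal proteins are known for having more of them than other families. The table held 275 rows named as pseudogenes of ribosomal protein genes, with 638716 counts. By alignment of their transcripts (at least 100 bases at 90% identity or more), 1026 pseudogene rows resembled one of the 80 genes and held 1270074 counts, 26.9% of the sum with the 3443962 counts of the genes themselves. The share in such copies had a median of 22.5% over the genes and exceeded 50% for 10 of them. It was low for Rpl13a (1.41%), Rps14 (3.87%), Rps9 (7.09%), Rps27 (7.35%) and Rps27l (10.6%), and higher for Rpl3 (34.0%), Rpl12 (41.2%), Rps2 (45.5%), Rps23 (51.3%) and Rpl7a (57.1%). Added to their genes, these rows raised the mean shares, from BaPs to the spleen, to 9.28%, 6.54%, 6.19% and 7.01%. Of the calls reported below, pooling kept 19 of 19, 20 of 23, 0 of 1 and 35 of 37 in the same direction, in the order BaP against pre-basophil, pre-basophil against BM mature, spleen against BM mature and BaP against spleen mature.

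Over the 4 groups, 52 of the 80 genes (65%) passed edgeR's quasi-likelihood test at a false discovery rate of 0.05, against 57.8% of all tested genes, so the family did not stand out by the number of its differences. The SD of the 4 group means of log2 CPM had a median of 0.20 over the family and 0.34 over 8820 other genes between its lowest and highest mean level. The SD within groups had a median of 0.12 against 0.21. That range reaches down to Rps4l, with 535 counts, and the other genes were not matched to the members in level. The spreads are therefore not those of equally abundant genes. Means fell in steps from BaPs over pre-basophils and BM mature to spleen mature basophils for 20 genes (25%, against 16.4% of all genes), and rose in steps for no gene (against 15.3%). The mean was lowest in pre-basophils for 48 genes (60%, against 18% of all genes) and highest in BaPs for 52 (65%, against 34.2%). The first count depended on scaling, since with library size alone, a check chosen after seeing the data, it was 25 (31.25%, against 18.6%) and the mean was lowest in BM mature basophils for 41 (51.25%, against 35%), the group with the lowest share of counts above. Members of the family did not all move together. The correlation of log2 CPM between pairs over the 12 libraries had a median of 0.42 and ran from -0.89 to 0.99, with 21.7% of pairs under 0. For deviations from the group means the median was 0.37. Other genes were not read in this way.

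**Figure D2:**
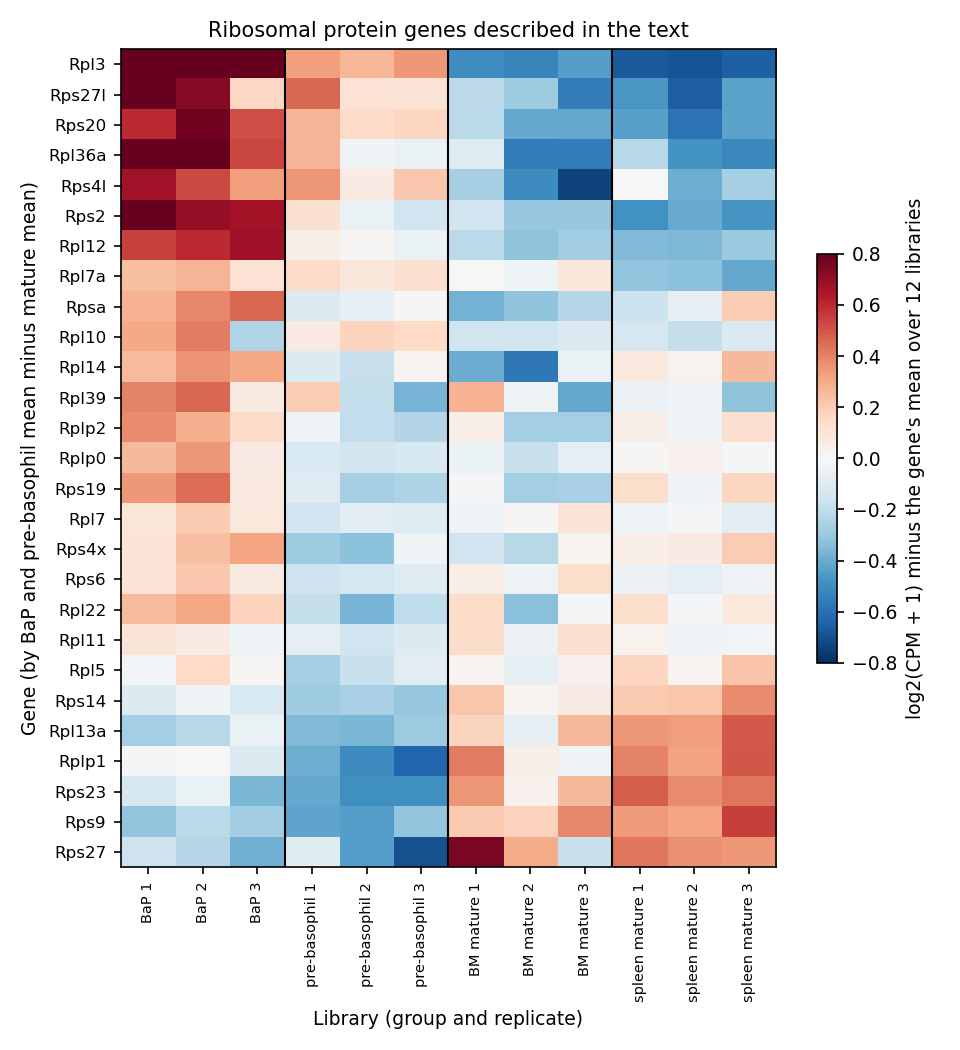
Log2(CPM + 1) of the ribosomal protein genes described in the text minus each gene's mean over the 12 libraries, with genes in rows ordered by the mean of the BaP and pre-basophil libraries minus the mean of the mature libraries, and libraries in columns. Rpl3 and Rps27l stand at the top as higher in BaPs and pre-basophils, and Rps27, Rps9 and Rps23 at the bottom as higher in mature basophils.

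BaPs were first compared with pre-basophils, the next stage by the sort. In edgeR's quasi-likelihood test, 19 of the 80 genes (23.75%) were called, against 7.08% of all tested genes. All 19 were higher in BaPs, a direction called for 2.79% of all genes, and no gene was lower, against 4.29%. At an unadjusted p under 0.05 the count was 49 (61.25%, against 23.1% of all genes), and 79 of the 80 genes had a higher fitted level in BaPs. DESeq2 called 28 genes higher and 0 lower, and 8.83% of all genes. The median log2 fold change was 0.32, against 0.02 over all tested genes, and for 56 genes (70%) all 3 BaP libraries lay above all 3 pre-basophil libraries, against 12.1% of all genes. The number called depended on single libraries. Leaving out BaP replicate 1, 2 or 3 gave 10, 5 and 39 calls, all higher, while 6.84%, 7.31% and 12.4% of all genes were called. Without BaP replicate 2 the members' share, 6.25%, was thus at the level of all genes. Leaving out pre-basophil replicate 1, 2 or 3 gave 6, 3 and 4, against 2.88%, 2.38% and 2.56% of all genes, and leaving out BM mature replicate 2 gave 12, against 5.11%. It was 4 when only the 6 libraries of these groups were fitted, against 2.88%, and 28 with the replicate number as a block, against 9.28%. Library size alone gave 61, against 10.7%, and moved the median of all genes to 0.23 and that of the family to 0.52.

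Rps2, a protein at the mRNA entry side of the small subunit, showed the largest difference. Its levels were 733, 663 and 648 CPM in BaPs, against 444, 394 and 367 CPM in pre-basophils, with a log2 fold change of 0.76 (SE 0.11, edgeR adjusted p = 0.00115) and of 0.81 without BaP replicate 3. Levels of Rpl36a, a large subunit protein near the exit site for tRNA, were 295, 291 and 235 CPM against 196, 158 and 155 CPM (log2 fold change 0.69, SE 0.15, adjusted p = 0.0181). Levels of Rpl12, which lies at the base of the stalk, were 616, 636 and 674 CPM against 434, 424 and 405 CPM (0.61, SE 0.09, adjusted p = 0.00198). For these 3 genes, no BaP library fell to the level of a pre-basophil library. Rps19 was at 1564, 1675 and 1300.1 CPM in BaPs, against 1145, 1025 and 1038 CPM in pre-basophils (0.50, SE 0.12, adjusted p = 0.0294), and Rpl22 at 269, 280.3 and 257 CPM against 198, 175 and 196 CPM (0.50, SE 0.12, adjusted p = 0.0286). The other genes called were Rpl3, Rps12, Rps18, Rpl27, Rplp1, Rps15a, Rps4x, Rpsa, Rps20, Rplp2, Rps27a, Rpl13, Rps7 and Rpl32. Of the listed genes, the calls of Rps2, Rpl12 and Rpl3 held under all 23 alternatives tried.

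**Figure D3:**
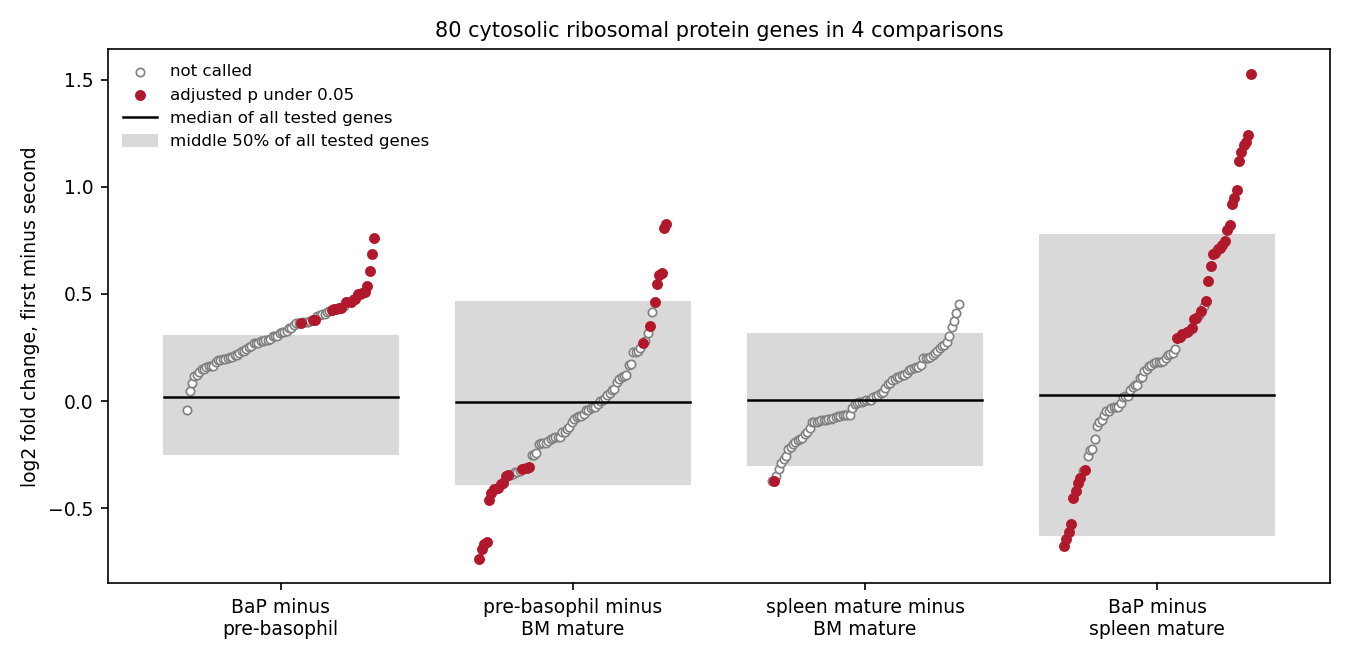
Log2 fold changes of the 80 genes in the 4 comparisons, sorted within each comparison. Red points were called by edgeR (adjusted p under 0.05) and the other points were not, black lines are medians of the 15083 tested genes and grey boxes hold their middle 50%. BaPs against pre-basophils gave 19 called genes, all above 0, while pre-basophils against BM mature gave 8 above and 15 below.

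Pre-basophils were then compared with BM mature basophils. Here the family split: 8 genes were higher in pre-basophils, against 16.3% of all tested genes, and 15 were lower, against 11%, with 23 called in all (28.75%, against 27.3% of all genes). Among the genes higher in pre-basophils were Rps4l, Rpl3, Rps27l, Rps20, Rpl36a, Rpl28 and Rpl12, and among those lower were Rps27, Rps23, Rplp1, Rps9, Rpl13a, Rps14 and Rpl9. The median log2 fold change over the 80 genes was -0.09 and the range -0.74 to 0.82. All libraries of one group lay above all of the other for 14 genes higher in pre-basophils (against 25.5% of all genes) and for 23 genes lower (against 21.5%). The split depended on scaling. With library size alone, which moved the median over all tested genes from -0.00 to 0.22, the calls were 20 higher and 3 lower and the family's median was 0.13, below that of all genes as before. Without pre-basophil replicate 1, 2 or 3 there were 12, 11 and 13 calls, against 17.3%, 19.7% and 21.1% of all genes, and without BM mature replicate 1 there were 13, against 19.7%. Scaling by DEGES (repeated TMM without called genes) gave 8 higher and 6 lower, relative log expression factors 4 and 16, and the upper quartile 4 and 20.

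Rpl3, which shapes the entrance of the peptidyl transferase centre, fell at each step up to the mature cells. Its levels were 845, 847 and 866 CPM in BaPs, then 594, 569 and 601 CPM in pre-basophils, next 334, 325 and 347 CPM in BM mature cells and 296, 292 and 299 CPM in the spleen. No library of one group overlapped those of another. The log2 fold change was 0.54 (SE 0.09, adjusted p = 0.0037) for BaPs against pre-basophils and 0.81 (SE 0.09, adjusted p = 2.8e-05) for pre-basophils against BM mature, while spleen against BM mature gave -0.18 (SE 0.09, adjusted p = 0.231). The first 2 calls held under all 23 alternatives, pooling of its pseudogenes included. Rps20, a protein of the small subunit head, had a like course, with means of 1164 ± 106, 863 ± 38.7, 592 ± 46.1 and 536 ± 33.6 CPM (SD, n = 3) from BaPs to spleen, and was called in both steps (adjusted p = 0.0315 and 0.00222). In all, 11 genes (13.75%) had every BaP and pre-basophil library above every mature library, against 16.7% of all genes. Rpl3, Rpl12, Rpl36a, Rps2, Rps20 and Rps27l were among them.

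Rps9, a small subunit protein near the mRNA channel, went the other way. It was at 1443, 1546 and 1484 CPM in BaPs, then 1339, 1325 and 1441 CPM in pre-basophils, next 2074, 2046 and 2347 CPM in BM mature cells and 2277, 2237 and 2634 CPM in the spleen. All 6 mature libraries lay above the other 6, and pre-basophils against BM mature gave -0.66 (SE 0.11, adjusted p = 0.000591). Rps23, which sits in the decoding centre, was at 629, 597 and 595 CPM in pre-basophils, against 1069, 859 and 1004 CPM in BM mature basophils (-0.69, SE 0.12, adjusted p = 0.000652). Both calls held under all 23 alternatives, with library size alone giving -0.43 for Rps9 and -0.46 for Rps23. Rpl13a, whose protein is also known as a translational silencer in interferon-treated monocytes, was at 1593, 1579.7 and 1671 CPM in pre-basophils, against 2295, 1945 and 2428 CPM in BM mature basophils (-0.46, SE 0.11, adjusted p = 0.00878), a call lost with library size alone (-0.23, adjusted p = 0.166). Rps14, with the most counts of the small subunit genes as Rpl13a had of the large, differed by -0.39 (SE 0.10, adjusted p = 0.0125) and lost its call with library size alone, with DEGES, without the count filter and without BM mature replicate 1. In all, 5 genes (6.25%), Rps9, Rps14 and Rps23 among them, had every BaP and pre-basophil library below every mature library, against 11.6% of all genes.

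**Figure D4:**
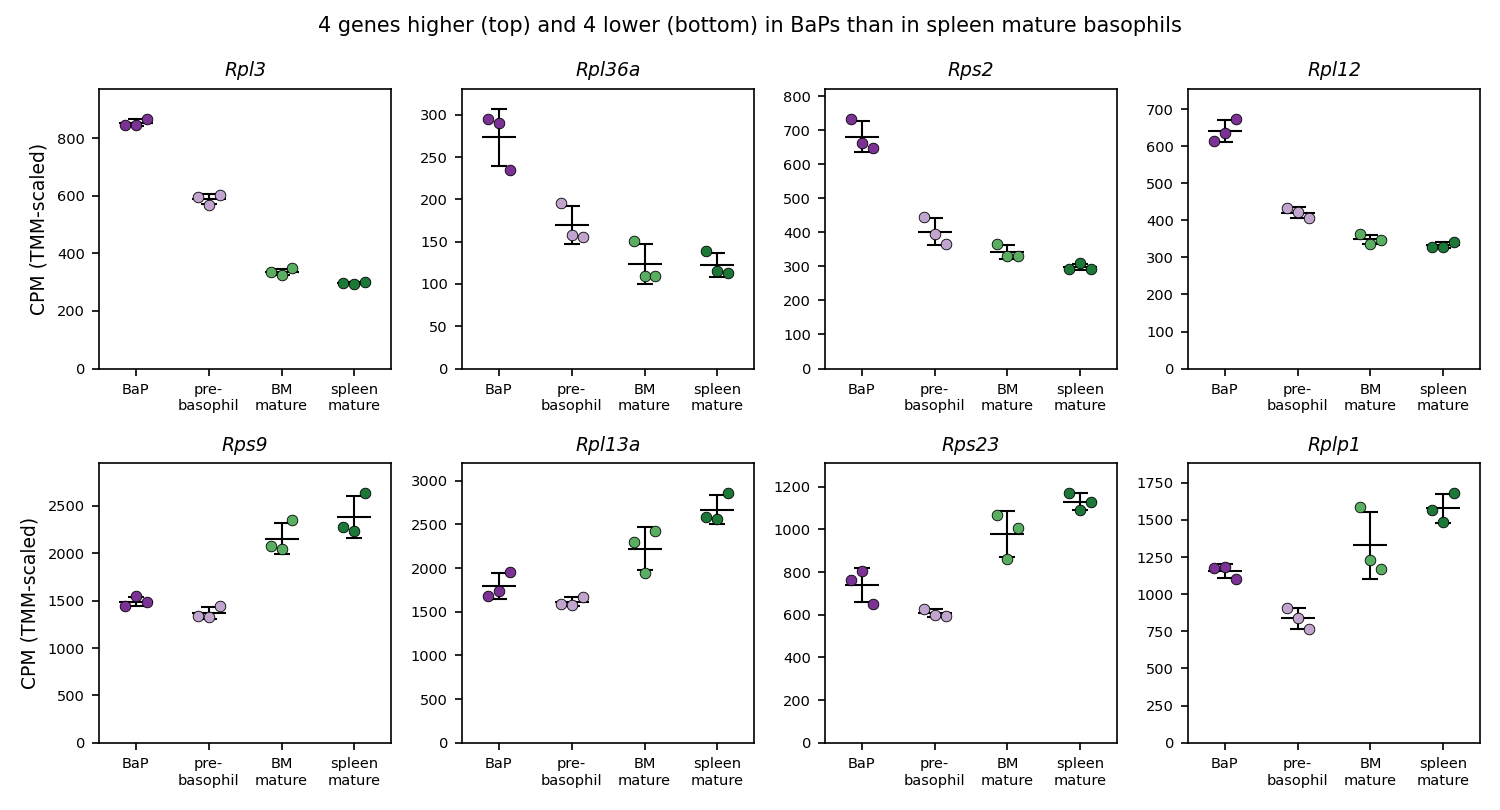
CPM per library of Rpl3, Rpl36a, Rps2 and Rpl12 (top), which were higher in BaPs than in spleen mature basophils, and of Rps9, Rpl13a, Rps23 and Rplp1 (bottom), which were lower. Points are libraries, horizontal bars are group means, error bars are 1 SD (n = 3), and each axis starts at 0. Rpl3 falls from a mean of 853 CPM in BaPs to 296 CPM in the spleen, while Rps9 goes from 1491 to 2382 CPM with its lowest mean, 1368 CPM, in pre-basophils.

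The paralogs Rps27l and Rps27 moved apart. Rps27 is a zinc finger protein of the small subunit, and Rps27l, a known p53 target, can take its place. Levels of Rps27l were 90.5, 73.3 and 49.3 CPM in BaPs, then 60.7, 47.7 and 47.5 CPM in pre-basophils, next 37.9, 35.8 and 29.6 CPM in BM mature cells and 31.5, 27.4 and 32.4 CPM in the spleen. Levels of Rps27 were 271, 259.8 and 233 CPM, 284, 224 and 187 CPM, 514, 375 and 269 CPM, and 409.7, 392 and 388 CPM in the same order. All 6 BaP and pre-basophil libraries lay above all 6 mature libraries for Rps27l, while for Rps27 the groups overlapped only through pre-basophil replicate 1, BaP replicate 1 and BM mature replicate 3. Pre-basophils against BM mature gave 0.60 for Rps27l (SE 0.20, adjusted p = 0.0394) and -0.74 for Rps27 (SE 0.20, adjusted p = 0.0136). These calls were fragile, since Rps27l lost its call under 11 of 23 alternatives and Rps27 under 4, with no change of sign. BaPs against spleen mature gave 1.21 (adjusted p = 0.000147) and -0.64 (adjusted p = 0.0135). Rps27l made up 21.5% ± 3.8 of the counts of the pair in BaPs and 18.5% ± 1.5 in pre-basophils, but 8.5% ± 1.5 in BM mature cells and 7.13% ± 0.59 in the spleen (SD, n = 3). The lowest CLEC12A-high library, at 17.5%, lay above the highest mature library, at 9.91%. This share does not depend on scaling between libraries. Rps27rt, an intronless copy of Rps27, was lower in pre-basophils than in BM mature basophils as Rps27 was (-0.67, SE 0.22, adjusted p = 0.0377). How far its reads can be told from those of Rps27 was not tested. Rps27rt is annotated as protein coding, so it was not among the pseudogene rows counted for Rps27 above.

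**Figure D5:**
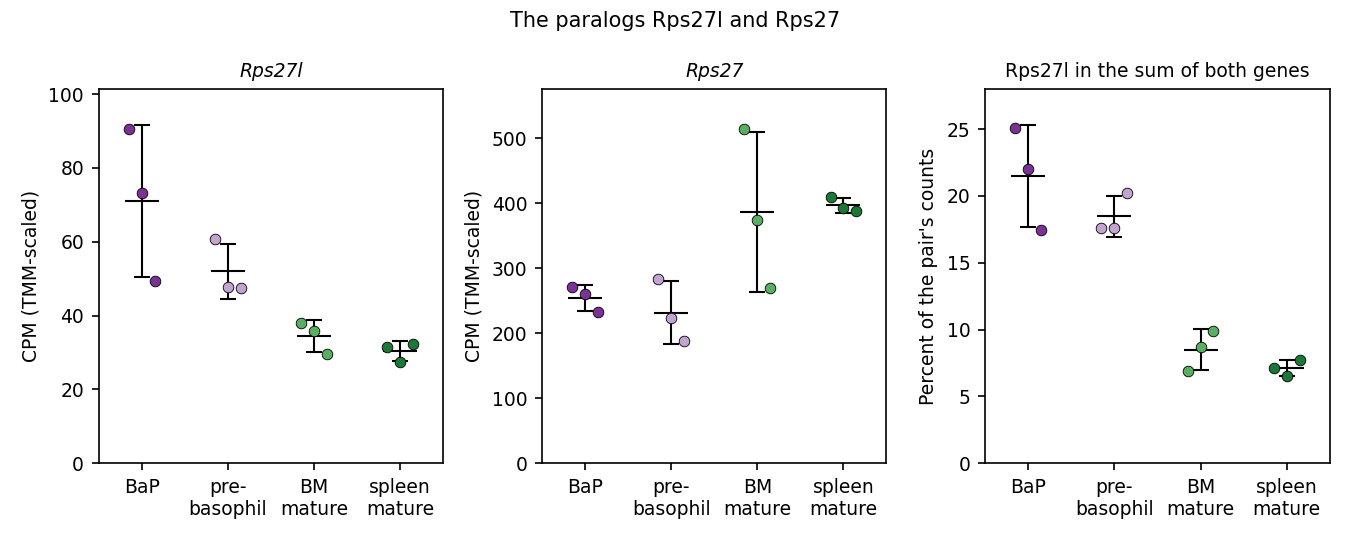
CPM per library of Rps27l (left) and Rps27 (middle) and the percent of their summed counts in Rps27l (right), by group. Points are libraries, horizontal bars are group means and error bars are 1 SD (n = 3). The percent lies between 17.5% and 25.1% in BaP and pre-basophil libraries and between 6.53% and 9.91% in mature ones.

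The spread of Rps27 within BM mature basophils (269 to 514 CPM) went along with a wider pattern by coding length, whose cause was not tested. Over the 77 protein-coding members, the deviation of a library from its group mean correlated with coding length at Spearman's rho of -0.81 in pre-basophil replicate 1 and -0.81 in BM mature replicate 1, at 0.35 and -0.16 in replicate 2, and at 0.68 and 0.74 in replicate 3 of these groups. In BaPs and spleen the values were -0.53 and -0.54 in replicate 1, -0.09 and 0.16 in replicate 2, and 0.46 and 0.35 in replicate 3. These are correlations across genes of 1 library, which share its preparation. Deviations from a group mean cancel out within the group, so the values of its replicates are not independent. The 19 shortest members (coding length up to 357 bases, Rps27 among them) had a median log2 deviation of 0.34 in BM mature replicate 1 and -0.30 in BM mature replicate 3. Across genes, the log2 fold change of pre-basophils against BM mature itself had a rho with coding length of 0.11. With mean log2 CPM the rho was -0.27 in that comparison and -0.10 in BaPs against pre-basophils. It was 0.45 in spleen against BM mature and -0.34 in BaPs against spleen mature. The cause of these trends was not tested.

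Other paralog pairs were read as well. Rpl36al, an intronless relative of the X-linked Rpl36a, was at 189, 173 and 171 CPM in pre-basophils, against 107, 87.4 and 96.6 CPM in BM mature basophils (0.87, SE 0.16, adjusted p = 0.00115). Rpl36a went in the same direction (0.46, SE 0.16, adjusted p = 0.0395), a call lost when resembling pseudogene rows were added. The share of Rpl36al in the pair was 49.1% to 52.4% in pre-basophil libraries, above all others. It was 41.5% to 46.8% in BM mature, 42.1% to 47.8% in BaP and 44.7% to 46.0% in spleen libraries. Rpl22l1, whose parent Rpl22 is known for its part in T cell development, was highest in BM mature basophils at 327, 377 and 397 CPM, against 247, 247 and 254 CPM in pre-basophils (-0.56, SE 0.11, adjusted p = 0.00232) and 269, 241 and 303 CPM in the spleen (spleen against BM mature -0.44, SE 0.11, adjusted p = 0.0323), while Rpl22 did not pass the test in either (adjusted p = 0.262 and 0.58). Rpl7l1 was lowest in BM mature basophils, with 21.004, 25.5 and 24.5 CPM against 32.4, 36.8 and 31.99 CPM in pre-basophils (0.50, SE 0.14, adjusted p = 0.0171). Rpl7 gave -0.14 (SE 0.10, adjusted p = 0.29). The share of Rpl22l1 in its pair overlapped between BM mature (56.6% to 67.8%) and pre-basophil libraries (55.5% to 58.6%). That of Rpl7l1 was 2.58% to 3.05% in BM mature and 4.08% to 4.61% in pre-basophil libraries.

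The proteins of the stalk, which recruits translation factors to the large subunit, are Rplp0, Rplp1 and Rplp2. All 3 were called over the 4 groups, as were 57.8% of all tested genes. Rplp1 was at 1179, 1186 and 1104 CPM in BaPs, then 906, 840.3 and 767 CPM in pre-basophils, next 1587, 1231 and 1167 CPM in BM mature cells and 1569.5, 1486 and 1680.2 CPM in the spleen, so the pre-basophil libraries were the lowest. It was lower in pre-basophils than in BM mature basophils (-0.66, SE 0.13, adjusted p = 0.00162) and than in BaPs (BaPs against pre-basophils 0.46, SE 0.13, adjusted p = 0.0425). Its partner Rplp2 was higher in BaPs than in pre-basophils (0.43, SE 0.12, adjusted p = 0.0454) and gave 0.00 (SE 0.12, adjusted p = 0.992) for pre-basophils against BM mature. Rplp0 gave 0.36 (SE 0.10, adjusted p = 0.0506) and -0.03 (SE 0.10, adjusted p = 0.864), and BaPs against pre-basophils gave 0.45 without BaP replicate 3 (adjusted p = 0.0037) and 0.36 with the replicate number as a block (adjusted p = 0.0482). Rpsa, also known as a laminin receptor, was at 1113, 1197 and 1262 CPM in BaPs, against 846, 874 and 922 CPM in pre-basophils (0.44, SE 0.12, adjusted p = 0.0372). In BaPs against pre-basophils, the calls of Rplp1, Rplp2 and Rpsa were lost under 11, 13 and 9 of 23 alternatives.

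Rpl5 and Rpl11, which join the large subunit with its smallest RNA and when free bind MDM2, did not pass the test in any comparison. Means of Rpl5 were 767 ± 52.7, 652 ± 40.7, 735 ± 31.8 and 816 ± 59.1 CPM and those of Rpl11 524 ± 24.9, 469 ± 13.9, 536 ± 39.4 and 504 ± 11.2 CPM from BaPs to spleen (SD, n = 3). Rps6, the substrate of S6 kinase, likewise passed in none, with 907 ± 47.5, 752 ± 15.7, 856 ± 53.9 and 799 ± 12.2 CPM. Without BaP replicate 3, Rps6 was called higher in BaPs than in pre-basophils (0.31, adjusted p = 0.0393) and than in the spleen (0.22, adjusted p = 0.0472), while Rpl5 and Rpl11 were not. Of the 4 X-linked members, Rpl36a and Rps4x were called higher in BaPs than in pre-basophils, as were 23.75% of the family and 2.79% of all tested genes. Rpl10 and Rpl39 were called in no comparison. Rpl10 was at 1180.3 and 1272 CPM in the first BaP libraries and at 809.6 CPM in BaP replicate 3, which lay below all pre-basophil libraries (1005 to 1083 CPM). Without that library, Rpl10 (0.51, adjusted p = 9.91e-05) and Rpl39 (0.57, adjusted p = 0.0079) were called higher in BaPs than in the spleen, and Rpl39 also than in pre-basophils (0.54, adjusted p = 0.0459). Rpl39 was called in the latter with the block as well (0.43, adjusted p = 0.0358). In all, 31 of the 80 genes were called in no pairwise comparison, and 26 of these did not pass the test over the 4 groups either. Over the 4 groups 57.8% of all tested genes passed. The share of all tested genes called in no pairwise comparison was not computed, so these counts do not show the family to be more or less stable than other genes.

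Ribosomal proteins that the symbols miss were read as well. Fau, which encodes a ubiquitin-like protein fused to Rps30, was at 938, 843 and 898 CPM in pre-basophils, against 1573, 1307 and 1352 CPM in BM mature basophils (-0.66, SE 0.11, adjusted p = 0.000721), a call held under all 23 alternatives. Rack1, a signalling scaffold on the small subunit, was higher in BaPs at 1046, 1020.3 and 1028 CPM than in pre-basophils at 701, 726 and 778 CPM (0.49, SE 0.10, adjusted p = 0.0119). Rps3a1 passed in no comparison, but in BaPs against pre-basophils it did with the replicate number as a block (0.35, adjusted p = 0.0423).

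Mature basophils of the spleen and BM were compared next. Of the 80 genes, 1 was called, Rpl7a, lower in the spleen, against 7.83% of all tested genes (3.16% higher and 4.67% lower), and 10 had an unadjusted p under 0.05 (12.5%, against 24.8% of all genes). Rpl7a was at 262, 260.4 and 245 CPM in the spleen and 326, 319 and 348 CPM in BM (-0.37, SE 0.10, edgeR adjusted p = 0.0326). Its call was lost when the rows resembling it, 57.1% of its summed counts, were added, and under 12 of 23 alternatives in all. Without BaP replicate 3, which enters this comparison only through the filter, the scaling and the shared estimate of the spread, 5 genes were called, against 18% of all genes. DESeq2 called 2 genes in this comparison, against 10.1%. The median log2 fold change was 0.00 and the range -0.37 to 0.45, and the highest value, that of Rpl14, had an adjusted p of 0.052. With library size alone, the median was 0.135 for the family and 0.135 for all tested genes. In that setting 6 genes were called, all higher in the spleen, against 7.19% of all genes. The shares of counts given above are likewise not scaled by TMM. Complete separation of the libraries was seen for 11 genes higher in the spleen (against 16.6% of all genes) and 8 lower (against 17.1%).

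BaPs and spleen mature basophils differed for 37 genes (46.25%, against 54.5% of all tested genes), of which 28 were higher in BaPs, against 29.8%, and 9 lower, against 24.6%. These groups differ in both stage and tissue, which this comparison cannot tell apart. Large log2 fold changes were those of Rpl3 (1.53, SE 0.09, edgeR adjusted p = 3.24e-08) and Rps27l (1.21), and the smallest were those of Rps9 (-0.68, SE 0.11, adjusted p = 0.000144), Rps27 (-0.64) and Rps23 (-0.61, SE 0.12, adjusted p = 0.00052). Rps2 and Rpl36a followed at 1.19 and 1.16. Without BaP replicate 3 the calls were 39 higher and 10 lower, and with library size alone, where the median of all genes was 0.33, they were 56 higher and 2 lower. DEGES, with a median of all genes of 0.15, gave 38 and 4. The small subunit had 19 of 32 genes called (59.4%) and the large 18 of 48 (37.5%), a difference that was not tested. Members with a snoRNA gene inside, which are processed from introns, were called in 13 of 29 and the others in 24 of 51.

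Of 15 other TOP mRNAs, mostly translation factors, 4 were higher in BaPs than in spleen mature basophils and 5 lower, where 29.8% and 24.6% of all tested genes were called higher and lower. The counts were the same without BaP replicate 3. Nap1l1, a histone chaperone, was highest against the spleen at 232, 208 and 193 CPM in BaPs and 88.0, 76.7 and 71.8 CPM in the spleen (1.42, SE 0.13, adjusted p = 9.54e-07). Tpt1, the translationally controlled tumour protein, was lowest, at 927, 1034 and 952 CPM against 1696, 1843 and 2032 CPM (-0.94, SE 0.11, adjusted p = 8.89e-06). In BaPs against pre-basophils 4 of the 15 were called, all higher (against 2.79% of all genes), and of these Eef1g, a subunit of the elongation factor complex, had the largest change (0.70, SE 0.12, adjusted p = 0.00371) and Hnrnpa1 the smallest (0.42, SE 0.10, adjusted p = 0.0266). Nap1l1 was also called there without BaP replicate 3 (0.49, adjusted p = 0.0147) and with the replicate number as a block (0.42, adjusted p = 0.0277). In pre-basophils against BM mature, 1 was higher (against 16.3%) and 3 lower (against 11%), with Nap1l1 (0.87, SE 0.13, adjusted p = 0.000246) and Tpt1 (-0.57, SE 0.11, adjusted p = 0.00154) at the ends. In spleen against BM mature, Tpt1 was higher (0.39, SE 0.11, adjusted p = 0.0422) and Npm1, the nucleolar chaperone, lower (-0.42, adjusted p = 0.0421).

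Among 14 tested genes of mTORC1, LARP1 and MYC regulation, Myc, a known activator of ribosome production, was at 34.4, 44.6 and 44.1 CPM in BaPs, then 15.7, 15.1 and 17.4 CPM in pre-basophils, next 21.96, 13.02 and 19.7 CPM in BM mature cells and 57.9, 48.02 and 66.5 CPM in the spleen. BaPs and spleen thus lay above both other BM groups without overlap (1.35, SE 0.19, adjusted p = 0.0012 for BaPs against pre-basophils and 1.66, SE 0.19, adjusted p = 0.000747 for spleen against BM mature). Mxd1, an antagonist of MYC, was at 62.3, 74.7 and 109.8 CPM in BaPs, then 133, 194 and 159 CPM in pre-basophils, against 331, 431 and 310.0 CPM in BM mature basophils, and was lower in BaPs than in pre-basophils (-0.97, SE 0.22, adjusted p = 0.0192) and in pre-basophils than in BM mature (-1.14, SE 0.22, adjusted p = 0.00161). Larp1 had a course like that of Myc, with means of 54.0 ± 10.7, 28.1 ± 4.35, 30.8 ± 3.07 and 49.4 ± 6.10 CPM (SD, n = 3), and was called higher in BaPs than in pre-basophils (adjusted p = 0.00496) and in spleen than in BM mature basophils (adjusted p = 0.0272). In this list, 2 were higher (against 2.79% of all genes) and 1 lower (against 4.29%) in BaPs than in pre-basophils. In pre-basophils against BM mature, 1 was higher (against 16.3%) and 3 were lower (against 11%), the higher one being Mlst8, a subunit of mTORC1 (1.64, adjusted p = 0.0353). In BaPs against spleen mature 1 was higher (against 29.8%), the mTORC1 activator Rheb (0.35, adjusted p = 0.0354), and 7 were lower (against 24.6%), with Mxd1 at -1.72 (adjusted p = 2.18e-05). Without BaP replicate 3 these were again 1 and 7.

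Of 6 chaperones dedicated to single ribosomal proteins, all 6 were higher in BaPs than in spleen mature basophils, against 29.8% of all genes, and 5 without BaP replicate 3, where Pdcd2 gave 0.52 (adjusted p = 0.102). Grwd1, the chaperone of Rpl3, was at 4.3, 4.01 and 8.81 CPM in BaPs, against 0.80, 0.495 and 0.93 CPM in the spleen (2.94, SE 0.48, adjusted p = 0.000171), where the lowest value stood for 3 counts, and Pdcd2, the chaperone of Rps2, at 12.9, 18.2 and 19.8 CPM against 12.6, 8.09 and 11.8 CPM (0.65, SE 0.26, adjusted p = 0.0479). In pre-basophils against BM mature, Bccip, which carries Rpl23, gave 0.51 (SE 0.18, adjusted p = 0.0495, and 0.0574 with the replicate number as a block) and Tsr2, which carries Rps26, gave 1.53 (SE 0.43, adjusted p = 0.0165), the latter at 7.36 CPM or less in these libraries. The ribosomal proteins of mitochondria are encoded by separate nuclear genes. Of 78 tested, 45 were higher (against 16.3% of all genes) and 2 lower (against 11%) in pre-basophils than in BM mature basophils, and their median log2 fold change was 0.66. Against the spleen, 65 were higher (against 29.8%) and 4 lower (against 24.6%) in BaPs, with a median of 0.98. In BaPs against pre-basophils 4 were higher (against 2.79%) and 1 lower (against 4.29%), with a median of 0.18 against 0.32 for the cytosolic genes, and without BaP replicate 3 these counts were 10 and 1.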

How the data were processed

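Poly(A) RNA of sorted cells was amplified and sequenced in 12 libraries, 3 per group. Per the labels and methods, the authors trimmed reads with Cutadapt 3.4, aligned them to reference RNA with Bowtie2 2.4.2 and summed reads by gene, and the counts were used as deposited. The methods name GRCm38 and the submitters' processing notes GRCm39; no coordinate comes from the count table. No molecular identifiers were described, so a floor of 3 counts (0.290 to 0.955 CPM by library) covers counting error only.

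Counts were scaled by trimmed mean of M values factors (0.844 to 1.30) and filtered by expression (minimum count 10), leaving 15083 genes. They were tested with edgeR 4.0.16 (R 4.3.3) by a quasi-likelihood F test, with a coefficient per group over all 12 libraries and Benjamini-Hochberg adjustment over all tested genes (called at 0.05, prior count 2). Every adjusted p is from this test unless another tool is named. With 3 against 3 an exact permutation test cannot go below 0.1, so none is given. Alternatives were DESeq2 1.42.0, other scalings, no filter, only the groups compared, a replicate block, pseudogene rows added to their genes (blastn 2.17.0) and each library left out. Deviations from the group means correlated above 0.1 in all 9 same-numbered pairs within bone marrow (0.12 to 0.26) and in 0 of 9 pairs with the spleen. Same-numbered bone marrow libraries thus varied together, but the labels do not state a pairing. The reason was not tested, and the main test does not use the number. The genes and lists were chosen with earlier results of these data known. Genes named with values were, per comparison, the 3 largest and 3 smallest changes among those called, the gene with most counts in each subunit, stalk, X-linked and paralogous genes and, per other list, the largest and smallest change called. Rps20, Rpl14 and Rps27rt were added after their values were seen. Some genes of the family are not reported by name here.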

Additional observations from a re-analysis of the deposited data

How the results depend on the processing

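Among the values of named genes, 4085 kept their call or their lack of a call over the alternatives, 239 lost a call, 90 gained one and 0 changed direction while called. Values that were called neither in the main test nor in the alternative counted as kept whatever their direction. The counts of ribosomal protein genes called moved as follows. In pre-basophils against BM mature (23), no count filter gave 15 and DEGES 14. In BaPs against pre-basophils (19), library size alone gave 61 and a fit of only those groups 4. In spleen against BM mature (1), library size alone gave 6, the upper quartile 2, DESeq2 2, a fit of only those groups 4 and addition of resembling pseudogene rows, an alternative chosen after seeing the data, 0. In BaPs against spleen mature (37), library size alone gave 58. Leaving out 1 library gave 37 to 68 genes over the 4 groups, 11 to 31, 3 to 39, 0 to 5 and 31 to 49 in these comparisons in the order given, and mean shares of 6.54% to 6.94% in BaPs, 4.71% to 4.79% in pre-basophils, 4.47% to 4.59% in BM mature and 5.09% to 5.25% in spleen. Adding rows named as pseudogenes raised the shares to 8.01%, 5.65%, 5.36% and 6.10%, and adding all resembling rows to 9.28%, 6.54%, 6.19% and 7.01%. The causes were not tested. With the replicate number as a block the counts were 63 over the 4 groups and 29, 28, 3 and 40. It kept every call of ribosomal protein genes in the 4 comparisons and added 6, 9, 2 and 3. With the spleen no pairing was shown, though 12 of 12 libraries correlated best with their own number. The 3 libraries per group limit what can be called, and a gene that missed the threshold may still differ.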
